A study of Homo sapiens with 6 samples.

Results

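RNA polymerase I (Pol I) and RNA polymerase III (Pol III), with the factors that place them on their genes, were followed through the transcriptome of HEK 293T cells. The genes were chosen by symbol among the protein-coding genes of the count table: the subunits named POLR1A to POLR1H and POLR3A to POLR3K with POLR3GL, the Pol I factors UBTF, RRN3, TTF1 and TAF1A to TAF1D, the Pol III factors GTF3A, GTF3C1 to GTF3C6, BRF1, BRF2, BDP1 and SNAPC1 to SNAPC5, and the repressor MAF1. This gave 41 of 30270 genes, and the rule used names alone, although earlier results of these data were known when it was made. All 41 passed the filter on low counts, a largest count above 12 in any library. Of these, 13 act with Pol I, 25 with Pol III, 2 are subunits of both enzymes, and MAF1 is the remaining gene.

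The study asked what happens to the transcriptome when the terminal uridylyltransferases TUT4 and TUT7, which add uridines to RNA 3′ ends, are both removed. HEK 293T is a human embryonic kidney line that carries the SV40 large T antigen. Total RNA depleted of ribosomal RNA was sequenced from 3 wild-type libraries (WT) with no treatment named and from 3 libraries labelled as a TENT3A/B knockout, another name for TUT4/7 (ΔTUT4/7). Both groups carried the same cell line and treatment labels and the same medium with fetal bovine serum and antibiotics. The knockout line had been made earlier by another group, and whether it is 1 clone is not given in the sources used here, so line and genotype cannot be told apart. The libraries of a group are called biological replicates in the labels, with no statement of separate thawings or dates, and p-values measure the spread between them. As these are bulk samples, fewer cells of a type and less RNA per cell cannot be told apart.

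Library totals ran from 18757228 to 33148937 estimated counts, and the 41 genes had between 81 and 10139.2 counts in a library. Levels are given as counts per 1e6 counts of the library (CPM), scaled by TMM, a factor that evens out library composition, and errors of levels are SD over 3 libraries (n = 3). TUT7 stood at 60.4, 62.7 and 64.8 CPM in WT and at 27.2, 25.2 and 26.5 CPM in the libraries labelled ΔTUT4/7. TUT4 stood at 212, 216 and 206 CPM in WT and at 882, 920 and 917 CPM in the libraries labelled ΔTUT4/7, which goes against a loss of its transcript. Every direction given for ΔTUT4/7 below therefore rests on the label of these libraries. Epithelial markers were mixed: KRT18 rose (30.5 to 44.3 CPM), KRT8 fell (9.96 to 3.43 CPM), PAX2 fell (2.15 to 1.45 CPM), and EPCAM went from 1.07 CPM to a count of 0, while PAX8 was not analysed here. Of the neurofilament genes, which HEK 293T cells are known to express, NEFL fell from 352 to 105 CPM, NEFM from 969 to 0.017 CPM, and INA rose from 2.34 to 31.4 CPM. Markers of fibroblast and liver cells were at or below 20.4 CPM in WT and 7.45 CPM in those labelled ΔTUT4/7 in COL1A1, COL3A1, PDGFRB and ALB, and PTPRC, CD3E, HBB and DCN were not analysed here. The part of these marker differences in the results below was not tested.

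Pol I has a single kind of gene to read, the repeated units that encode the precursor of the large ribosomal RNAs. Pol III makes transfer RNAs, the smallest ribosomal RNA and short non-coding RNAs such as that of the signal recognition particle. Both are large enzymes built from paired counterpart subunits and some shared ones, and both depend on factors of their own: UBTF, RRN3 and the SL1 complex for Pol I, and TFIIIA, TFIIIC, TFIIIB and SNAPc for Pol III. Growing cells spend much of their transcription on these products, and MAF1 is known as a repressor of Pol III.

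The upstream sequences of 4 of the genes are shown because they belong to genes with called changes in both directions and hold the letter patterns counted below. They were chosen after their values were seen and do not represent the list. Of 26 genes that rose and have a promoter window, 7 hold CACGTG, and each printed gene that rose is among those 7. POLR1G is the Pol I gene with the largest rise, GTF3C6 and POLR3A are Pol III genes that rose, and POLR3GL is the Pol III gene with the largest fall. The sequences are from RefSeq on GRCh38.p14, read 5′ to 3′ on the strand of the gene, and were limited to bases outside annotated exons. POLR1G covers chr19:45406394-45406643 (plus strand), GTF3C6 chr6:110958456-110958705 (plus), POLR3A chr10:78029523-78029765 (minus) and POLR3GL chr1:145964576-145964689 (plus). Each ends directly at the RefSeq start of the gene, except that of POLR3A, which ends 7 bases before it. Capitals mark CACGTG (the E-box letters), CCGGAAG (letters of the ETS family) and CCAAT or its reverse complement ATTGG.
POLR1G: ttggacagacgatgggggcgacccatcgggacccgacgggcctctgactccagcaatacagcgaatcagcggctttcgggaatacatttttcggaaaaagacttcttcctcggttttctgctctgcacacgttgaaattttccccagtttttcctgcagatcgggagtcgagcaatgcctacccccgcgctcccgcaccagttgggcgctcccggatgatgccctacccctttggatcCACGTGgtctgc
GTF3C6: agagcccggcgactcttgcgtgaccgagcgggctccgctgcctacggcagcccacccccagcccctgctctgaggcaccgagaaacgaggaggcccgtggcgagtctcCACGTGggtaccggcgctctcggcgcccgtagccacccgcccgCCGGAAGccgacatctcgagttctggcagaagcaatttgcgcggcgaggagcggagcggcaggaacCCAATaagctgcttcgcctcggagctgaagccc
POLR3A: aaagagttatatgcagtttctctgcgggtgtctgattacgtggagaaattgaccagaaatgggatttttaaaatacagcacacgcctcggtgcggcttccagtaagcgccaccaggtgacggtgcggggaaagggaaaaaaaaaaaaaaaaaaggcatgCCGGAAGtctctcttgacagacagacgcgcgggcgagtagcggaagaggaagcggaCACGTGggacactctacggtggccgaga
POLR3GL: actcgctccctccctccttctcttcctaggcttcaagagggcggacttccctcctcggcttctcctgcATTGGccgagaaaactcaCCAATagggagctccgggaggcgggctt
The E-box letters begin 12 bases upstream of the start of POLR1G, 142 bases upstream in GTF3C6 and 35 bases upstream in POLR3A. The ETS letters stand 99 bases upstream in GTF3C6 and 91 bases upstream in POLR3A. POLR3GL holds neither in its 250 upstream bases, and has ATTGG at 46 and CCAAT at 28 bases upstream.

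Most of the machinery was higher in the libraries labelled ΔTUT4/7. By edgeR's quasi-likelihood test at an adjusted p under 0.05, 32 of the 41 genes rose (78.0%), 4 fell (9.76%) and 5 did not pass, so that 87.8% were called in either direction. Among all 23952 genes tested, 28.6% rose and 29.0% fell (57.7% in either direction), and among the 14766 protein-coding genes tested 37.9% rose and 31.8% fell (69.8%). The median log2 fold change over the 41 genes was 0.53, beside -0.02 over all genes and 0.045 over protein-coding genes. The 41 values ran from -0.68 to 1.17, that is, from POLR3GL to POLR1G. The WT and ΔTUT4/7 libraries did not overlap in 37 genes, higher in 33 and lower in 4, against 30.9% and 31.8% of all tested genes (62.7% in either direction, and 73.3% of protein-coding genes). A rise of 2-fold or more was found for 6 genes (POLR1G, TAF1A, POLR3K, POLR3F, GTF3C6 and POLR3B), against 5.9% of all tested genes and 6.26% of protein-coding genes. The largest fall, that of POLR3GL, was under 2-fold, whereas 12.4% of all tested genes fell by 2-fold or more. With library size as the only scaling, the median of all genes moved from -0.02 to -0.13 and the share of calls that were rises from 49.6% to 40.1%, and there 28 of the 41 genes rose and 6 fell.

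**Figure D1:**
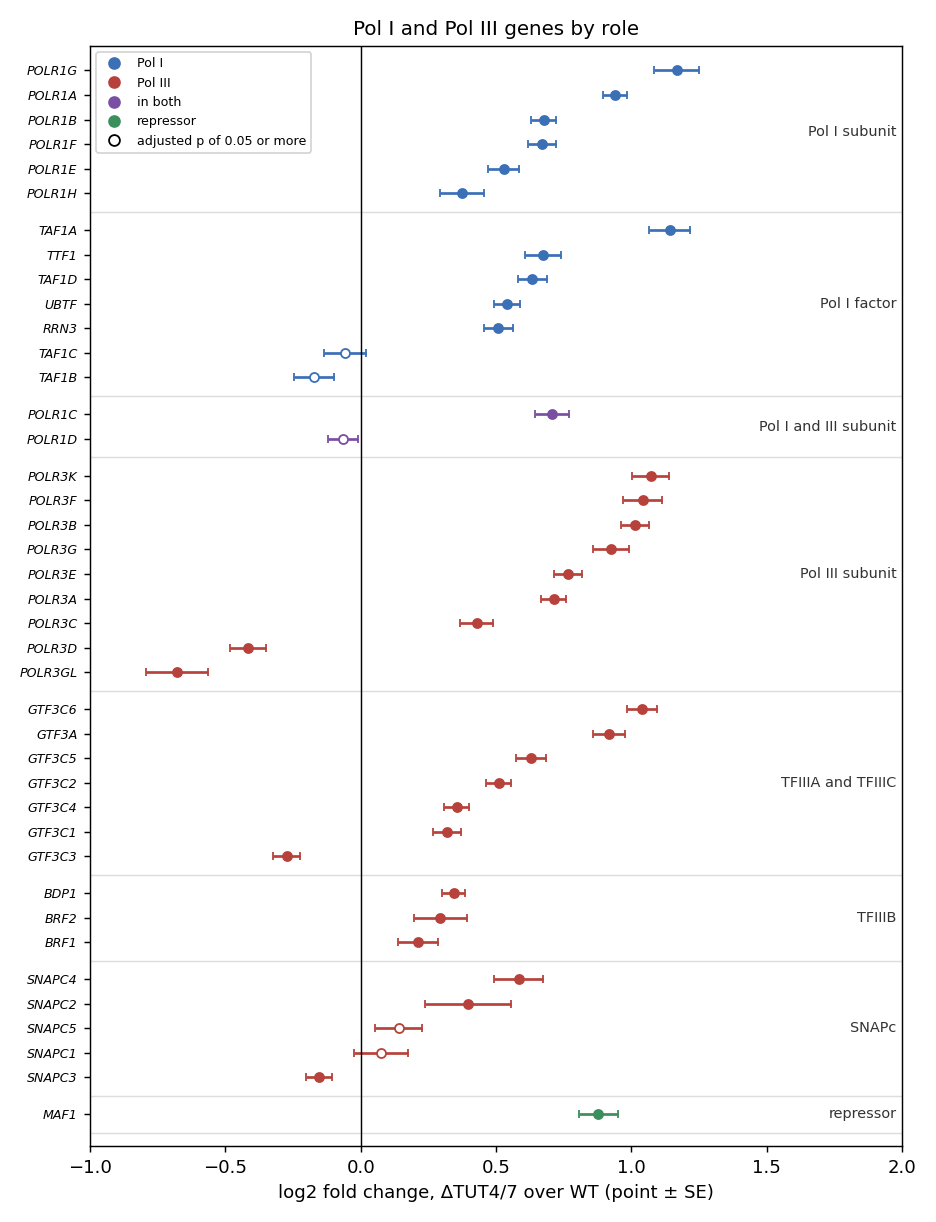
Log2 fold change of ΔTUT4/7 over WT (horizontal axis, point ± SE, n = 3 libraries a group) for 40 of the 41 genes, grouped by role, with filled points for an adjusted p under 0.05 in edgeR's quasi-likelihood test. Pol I subunits all lie to the right of 0, whereas Pol III subunits run from -0.68 (POLR3GL) to 1.07 (POLR3K), and TFIIIB and SNAPc genes lie closer to 0 than most subunits.

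Each of the 6 subunits particular to Pol I rose. POLR1A, which carries the largest part of the active centre, had 154, 152 and 160 CPM in the WT libraries and 300, 287 and 305 CPM in those labelled ΔTUT4/7. The groups lay far apart relative to their spread, and the log2 fold change was 0.94 ± 0.04 (SE, adjusted p = 1.139e-13). POLR1G, a subunit of the heterodimer that assists initiation and elongation, started lower at 16.1, 15.9 and 18.8 CPM and reached 36.2, 42.2 and 36.6 CPM. This was the largest change among the 41 genes, at 1.17 ± 0.08 (adjusted p = 1.092e-10). Its partner in that dimer, POLR1E, had 47.8 ± 1.12 CPM in WT and 69.0 ± 3.82 CPM in those labelled ΔTUT4/7, and rose by 0.53 on the log2 scale. POLR1B, the second-largest subunit, rose by 0.68, from 112 ± 4.19 to 180 ± 3.15 CPM. The stalk subunit POLR1F rose by 0.67, from 66.1 ± 0.637 to 105 ± 6.45 CPM. The smallest of these rises was that of POLR1H, which is involved in RNA cleavage, at 0.37. The median of the 6 log2 fold changes was 0.67. POLR1G shares its locus with ERCC1 on the opposite strand, which had a mean of 518.5 counts, and POLR1H with the pseudogene ZNRD1ASP at 753.7 counts. Without a statement on read strand, reads of such partners cannot be told apart. This limit holds for 18 of the 41 genes, which overlap a gene with a mean of 50 or more counts on the opposite strand.

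Among the Pol I factors, 5 of 7 rose and the other 2 did not pass the test, with a median log2 fold change of 0.54. TAF1A, a component of SL1, the complex that marks the promoter of the ribosomal RNA genes, had 14.7, 17.4 and 16.9 CPM in WT and 35.3, 35.9 and 37.4 CPM in those labelled ΔTUT4/7. The groups were clearly separated, with a log2 fold change of 1.14 ± 0.08 (adjusted p = 4.143e-11). TAF1D, another SL1 component and the factor with the highest level, rose from 173, 194 and 198 CPM to 286, 311 and 280 CPM, a log2 fold change of 0.63 ± 0.05 (adjusted p = 5.858e-09). The remaining TAF1 components of SL1 did not pass the test, and TBP, which SL1 shares with other complexes, fell by 0.51 on the log2 scale. TAF1B, which resembles the general factor TFIIB, had 35.0, 37.5 and 37.3 CPM in WT and 31.8, 36.5 and 29.5 CPM in those labelled ΔTUT4/7, and its groups overlapped. Its log2 fold change was -0.17 with an approximate unadjusted 95% interval, from the SE and a normal distribution, from -0.32 to -0.03 (adjusted p = 0.0522). For TAF1C it was -0.06 with an interval from -0.21 to 0.09 (adjusted p = 0.534). TAF1B was called lower in 7 of 16 other fits. UBTF, which binds along the ribosomal RNA genes, rose by 0.54 on the log2 scale, from 112 ± 6.02 to 162 ± 3.81 CPM. RRN3, which bridges the enzyme and SL1, rose by 0.51, from 73.3 ± 4.18 to 104 ± 3.23 CPM, and its pseudogene copy RRN3P1 had a mean of 477.7 counts. TTF1, which ends transcription, rose by 0.67, from 24.3 ± 1.05 to 38.8 ± 0.546 CPM. TAF1D overlaps CEP295 (3819 counts on average) and RRN3 overlaps PDXDC1 (4029 counts), both on the opposite strand.

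POLR1C and POLR1D form the assembly dimer present in both enzymes, and their calls differed. POLR1C had 38.6, 43.4 and 37.7 CPM in WT and 63.6, 63.6 and 68.5 CPM in those labelled ΔTUT4/7. It rose by 0.71 ± 0.06 on the log2 scale (adjusted p = 3.141e-09). XPO5 (4048 counts on average) and YIPF3 (970 counts) overlap POLR1C on the opposite strand. POLR1D had 70.0, 71.2 and 77.5 CPM in WT and 67.3, 73.6 and 68.5 CPM in those labelled ΔTUT4/7. Its groups overlapped, and its log2 fold change was -0.07 with an approximate 95% interval from -0.18 to 0.04 (adjusted p = 0.333). It was called lower in 4 of 16 other fits. Per kb of the canonical transcript, POLR1D stood at 105 ± 5.80 CPM per kb in WT and 101 ± 4.84 in ΔTUT4/7, and POLR1C at 31.3 ± 2.39 and 51.2 ± 2.22. Among the subunits particular to Pol I or Pol III and this pair, POLR1D was at the highest level per kb in both groups. That rank rests on its canonical transcript of 0.693 kb.

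**Figure D2:**
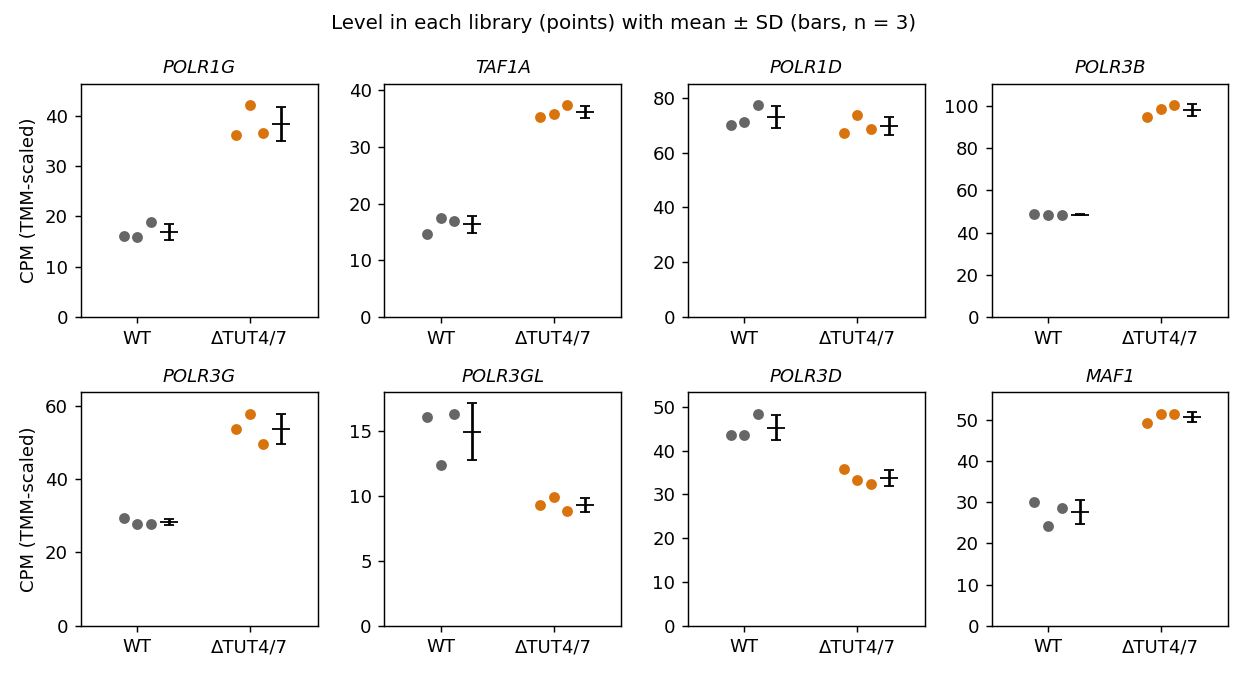
CPM (vertical axis, TMM-scaled, starting at 0) of 8 genes in each of the 3 WT (grey) and 3 ΔTUT4/7 (labelled so, orange) libraries, with mean ± SD as black bars. POLR1G, TAF1A, POLR3B, POLR3G and MAF1 are higher in every ΔTUT4/7 library, POLR3GL and POLR3D are lower in each, and POLR1D overlaps.

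Of the 10 subunits particular to Pol III, 8 rose and 2 fell, with a median log2 fold change of 0.74. POLR3B, the second-largest subunit, had 48.8, 48.3 and 48.4 CPM in WT and 94.9, 98.6 and 101 CPM in those labelled ΔTUT4/7, and its log2 fold change was 1.01 ± 0.05 (adjusted p = 3.539e-13). The WT libraries hardly differed from each other in this gene, with an SD of 0.263 CPM. POLR3A, the largest subunit, had 123, 121 and 132 CPM in WT and 211, 197 and 209 CPM in those labelled ΔTUT4/7, and its log2 fold change was 0.71 ± 0.05 (adjusted p = 3.454e-11). Both catalytic subunits therefore rose without overlap between the groups. POLR3K, involved in termination and RNA cleavage, rose by 1.07 ± 0.07 on the log2 scale, from 21.4 ± 1.43 to 44.8 ± 1.45 CPM. POLR3F, of the trimer that opens the promoter, rose by 1.04 ± 0.07, from 22.3 ± 0.927 to 46.0 ± 3.80 CPM. POLR3C, its partner in the trimer, rose by 0.43, from 36.8 ± 0.852 to 49.7 ± 2.34 CPM. In each of these genes the lowest library labelled ΔTUT4/7 lay above the highest WT library. POLR3E, of the dimer involved in initiation and termination, rose by 0.76, from 53.4 ± 1.77 to 90.9 ± 2.04 CPM. POLR3D, the partner of POLR3E, fell instead, from 43.7, 43.6 and 48.5 CPM to 35.9, 33.2 and 32.3 CPM, a log2 fold change of -0.42 ± 0.07 (adjusted p = 1.324e-05).

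The exchangeable member of the trimer exists in alternative forms, which moved in opposite directions. POLR3G is known from stem and tumour cells and POLR3GL from differentiated tissues. POLR3G had 29.4, 27.9 and 27.9 CPM in WT and 53.7, 57.9 and 49.7 CPM in those labelled ΔTUT4/7, and rose by 0.92 ± 0.07 on the log2 scale (adjusted p = 1.092e-10). POLR3GL had 16.1, 12.4 and 16.4 CPM in WT and 9.30, 9.90 and 8.84 CPM in those labelled ΔTUT4/7, and fell by 0.68 ± 0.11 (adjusted p = 2.644e-05). Neither pair of groups overlapped. The gene MBLAC2 shares the locus of POLR3G on the opposite strand, with a mean of 411.3 counts. Per kb of canonical transcript, POLR3G went from 8.62 ± 0.265 to 16.3 ± 1.25 CPM per kb and POLR3GL from 12.7 ± 1.87 to 7.93 ± 0.452. Of the summed level of both per kb, POLR3G made up 39.5%, 44.6% and 37.9% in the WT libraries and 67.4%, 67.7% and 66.8% in ΔTUT4/7. The more abundant form per kb was thus POLR3GL in each WT library and POLR3G in each ΔTUT4/7 library. This order rests on canonical transcripts of 3.29 kb for POLR3G and 1.178 kb for POLR3GL, and other transcript lengths were not tried. In CPM, POLR3G was above POLR3GL in every library of both groups. The ratio of POLR3G to POLR3GL rose 3.01-fold (log2 difference 1.59), with p = 0.1 in a two-sided exact permutation test, the smallest value that 3 against 3 libraries allow. The sum was 21.3 ± 2.00 CPM per kb in WT and 24.3 ± 1.70 in ΔTUT4/7.

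**Figure D3:**
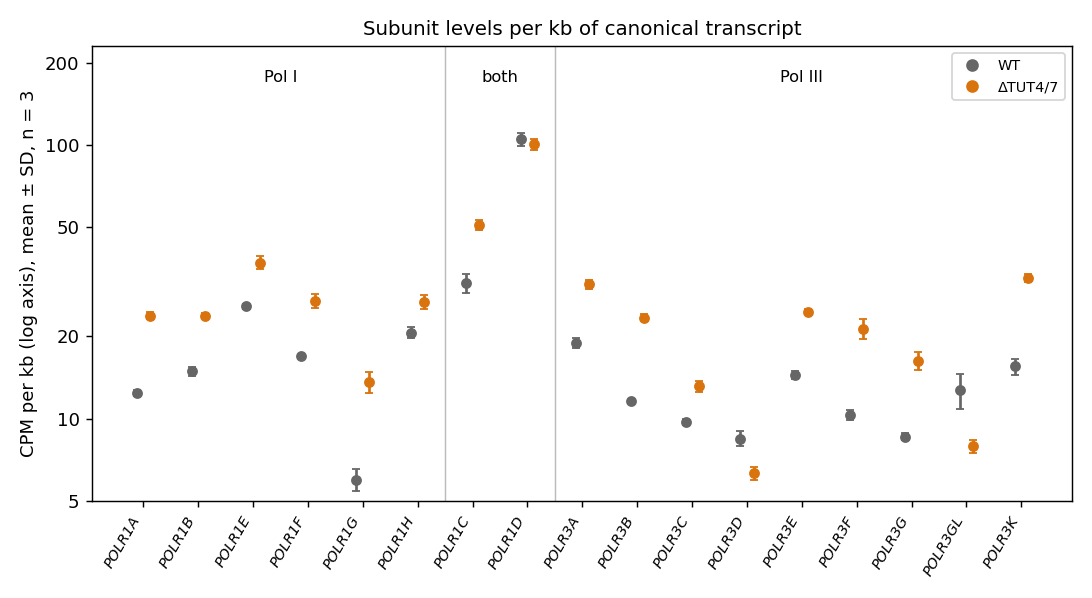
Level of the enzyme subunits in CPM per kb of canonical transcript (vertical log axis, mean ± SD, n = 3) in WT (grey) and ΔTUT4/7 (labelled so, orange), with Pol I on the left, the pair in both enzymes in the middle and Pol III on the right. POLR3G and POLR3GL change places between the groups on this scale (8.62 to 16.3 and 12.7 to 7.93), though not in CPM, and POLR1D lies near 100.7 to 105.2 in both.

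TFIIIA and TFIIIC, which recognise the promoters inside Pol III genes, gave 6 rises and 1 fall among 7 genes, with a median log2 fold change of 0.51. GTF3C6, the smallest TFIIIC subunit, had 40.5, 39.7 and 41.9 CPM in WT and 80.2, 88.3 and 83.0 CPM in those labelled ΔTUT4/7, and its log2 fold change was 1.04 ± 0.06 (adjusted p = 1.075e-12). GTF3C1, the largest subunit and the gene of this group with the highest CPM, had 265, 229 and 246 CPM in WT and 316, 297 and 309 CPM in those labelled ΔTUT4/7. Its rise was smaller, at 0.32 ± 0.05 (adjusted p = 1.487e-05), yet its groups did not overlap. GTF3A, which is TFIIIA itself and serves the genes of the smallest ribosomal RNA, rose by 0.92 ± 0.06, from 41.8 ± 1.70 to 79.0 ± 4.74 CPM. Among the other TFIIIC subunits, GTF3C5 rose by 0.63, GTF3C2 by 0.51 and GTF3C4 by 0.35. GTF3C3 was the exception within TFIIIC and fell by 0.27 ± 0.05 (adjusted p = 7.13e-05), from 117 ± 6.25 to 96.5 ± 2.19 CPM. A pseudogene copy, GTF3C6P2, had a mean of 192.3 counts and a log2 fold change of 0.80, and estimated counts can be divided between such copies.

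TFIIIB, which brings Pol III to the start site, is built from BDP1, BRF1 or BRF2, and TBP. The first 3 rose by 0.21 to 0.34 on the log2 scale, whereas TBP fell by 0.51. BDP1, its largest component, had 209, 221 and 217 CPM in WT and 267, 282 and 272 CPM in those labelled ΔTUT4/7, and its log2 fold change was 0.34 ± 0.04 (adjusted p = 6.016e-07). Its pseudogene BDP1P had a mean of 32 counts. BRF1, used at tRNA genes, had 28.8, 24.2 and 28.5 CPM in WT and 31.6, 31.4 and 31.3 CPM in those labelled ΔTUT4/7, and its log2 fold change was 0.21 ± 0.07 (adjusted p = 0.0194). BRF2, its counterpart at genes with upstream promoters, had 12.9, 12.1 and 11.1 CPM in WT and 15.0, 13.7 and 15.3 CPM in those labelled ΔTUT4/7, and its log2 fold change was 0.29 ± 0.10 (adjusted p = 0.0142). The median of BDP1, BRF1 and BRF2 was 0.29, and the calls of BRF1 and BRF2 were lost in 7 and 6 of 16 other fits. The ratio of BRF2 to BRF1 differed between the groups by 0.07 on the log2 scale (exact two-sided permutation p = 0.7). In SNAPc, which serves the same upstream promoters, 2 of 5 genes rose, 1 fell and 2 did not pass, with a median of 0.14. SNAPC4, its largest subunit, had 24.8, 20.2 and 26.1 CPM in WT and 38.5, 33.1 and 34.5 CPM in those labelled ΔTUT4/7, and rose by 0.58 ± 0.09 (adjusted p = 2.629e-05). SNAPC3, the subunit with the highest CPM, had 85.0, 84.7 and 84.3 CPM in WT and 75.6, 77.6 and 74.8 CPM in those labelled ΔTUT4/7, and fell by 0.16 ± 0.05 (adjusted p = 0.0094), a call lost with the GC and length offset (-0.090, adjusted p = 0.066). SNAPC2, the gene with the lowest counts of the 41, rose by 0.40 ± 0.16 (adjusted p = 0.0372), a call lost in 9 of 16 other fits. The log2 fold change was 0.07 for SNAPC1 (approximate 95% interval from -0.12 to 0.27, adjusted p = 0.557) and 0.14 for SNAPC5 (from -0.03 to 0.31, adjusted p = 0.185), whose groups did not overlap. On the opposite strand, PSIP1 overlaps SNAPC3 (5212 counts on average), BTBD6 overlaps BRF1 (793.3) and ADGRA2 overlaps BRF2 (404.5).

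MAF1, the repressor of Pol III, rose together with most of the enzyme it acts on. It had 30.0, 24.3 and 28.6 CPM in WT and 49.2, 51.3 and 51.5 CPM in those labelled ΔTUT4/7. The lowest ΔTUT4/7 library lay well above the highest WT library, and the log2 fold change was 0.88 ± 0.07 (adjusted p = 9.719e-10). SHARPIN overlaps MAF1 on the opposite strand, with a mean of 220.2 counts. MAF1 activity is known to be set by phosphorylation, which these counts do not measure.

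Pol I and Pol III were then compared. Of 13 Pol I genes 11 rose and 0 fell (1, TAF1B, at an unadjusted p under 0.05, and 0 with DESeq2), and of 25 Pol III genes 19 rose and 4 fell. The median log2 fold change was 0.63 for Pol I and 0.40 for Pol III, a difference of 0.24 that ran from 0.12 to 0.31 over the other fits. In each library, the median over the genes of log2 CPM, taken relative to each gene's own mean, was -0.35, -0.28 and -0.27 in WT and 0.28, 0.36 and 0.33 in ΔTUT4/7 for Pol I. For Pol III these medians were -0.22, -0.27 and -0.18 in WT and 0.18, 0.22 and 0.20 in ΔTUT4/7. The shift between groups was therefore in the same direction for both enzymes. As each gene was taken relative to its mean over all 6 libraries, the opposite signs of the groups restate that shift. Among the enzyme subunits alone the median was 0.67 for Pol I and 0.74 for Pol III. That order was turned in 2 of 17 alternatives, with the neighbouring genes subtracted (0.66 and 0.49) and with the GC and length offset (0.79 and 0.78). The lower median over all Pol III genes came with the TFIIIB and SNAPc genes, at 0.29 and 0.14. SNAPc, counted here with Pol III, also serves the snRNA genes of Pol II. The spread of log2 fold changes among genes was 0.39 (SD) for Pol I and 0.47 for Pol III. No test was made of the difference between the lists.

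For 6 pairs of counterparts, chosen after the values above were seen, the ratio of the Pol I gene to the Pol III gene was taken per kb in each library. As the changes of the single genes were known when the pairs were formed, the ratios are a description with no test. In 2 pairs the ratio was higher in ΔTUT4/7. The ratio of the largest subunits, POLR1A to POLR3A, went from 0.662, 0.663 and 0.644 in WT to 0.753, 0.775 and 0.773, a log2 difference of 0.23. That of POLR1G to POLR3D, counterparts in the initiation dimer, had the largest difference and went from 0.700, 0.691 and 0.734 to 1.91, 2.41 and 2.14, a 3.03-fold rise. In the other 4 pairs the ratio was lower in ΔTUT4/7. It fell by 0.34 on the log2 scale for POLR1B to POLR3B, by 0.24 for POLR1E to POLR3E, by 0.70 for POLR1H to POLR3K and by 0.39 for TAF1B to BRF1. With the median of its neighbours subtracted from each gene, the order was turned for POLR1B and POLR3B (0.71 and 0.67) and for POLR1E and POLR3E (0.54 and 0.47).

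**Figure D4:**
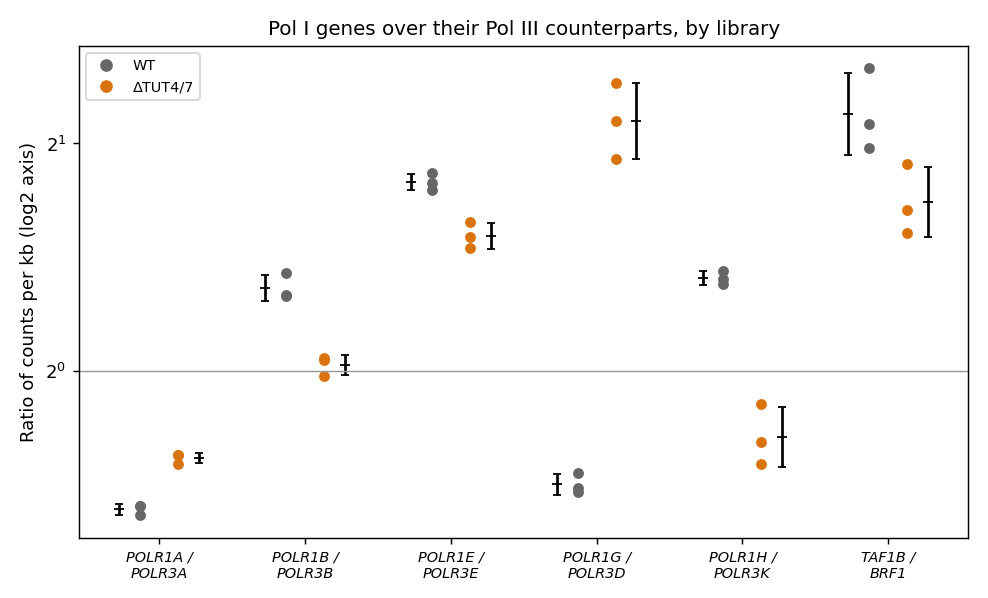
Ratio of a Pol I gene to its Pol III counterpart, in counts per kb (vertical log2 axis), in each WT (grey) and ΔTUT4/7 (labelled so, orange) library, with mean ± SD of the log2 ratios as black bars (n = 3). In 2 pairs the orange points lie above the grey ones and in 4 below, and the widest gap is that of POLR1G over POLR3D.

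Levels per kb differed more between genes than between groups. Over the 41 genes the median level was 15.9 CPM per kb in WT and 23.8 in ΔTUT4/7. In WT the levels ran from 2.56 CPM per kb for SNAPC2 to 115 for TAF1D. The Pol I subunits lay between 6.01 and 25.8 CPM per kb in WT and between 13.6 and 37.2 in ΔTUT4/7, and the Pol III subunits between 8.48 and 19.0 and between 6.34 and 32.6. TFIIIA and TFIIIC had a median of 27.4 CPM per kb in WT, above TFIIIB at 7.40 and SNAPc at 5.05. POLR3D was the Pol III subunit with the lowest level per kb in both groups, at 8.48 ± 0.523 and 6.34 ± 0.347. In WT, it could not be set apart from POLR3G at 8.62 ± 0.265 by the spread between libraries.

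Neighbouring genes on the chromosome moved with some of these genes. For each gene the median log2 fold change was taken over the expressed genes within 5 Mb, between 22 and 210 genes. These medians ran from -0.44 around POLR3D to 0.40 around POLR3K, lay above 0.2 for 10 genes and below -0.2 for 4. POLR3D at -0.42 lay close to the 51 genes around it at -0.44, and at 0.025 once they were subtracted. GTF3C4 at 0.35 lay close to its neighbours at 0.33, and GTF3C1 was at 0.32 beside 0.21. POLR3G rose by 0.92 where its neighbours had a median of -0.23, and POLR3GL fell where they had a median of -0.02. With the neighbours' median subtracted, 29 of the 32 genes that rose kept a difference above 0.2, and the median was 0.55 for Pol I and 0.38 for Pol III. Genes of the machinery lying close together shared their calls in some cases and differed in others. TTF1, GTF3C4 and GTF3C5 lie 263 to 624 kb apart on chromosome 9 and rose by 0.67, 0.35 and 0.63. POLR3C and POLR3GL are 120 kb apart on chromosome 1 and changed by 0.43 and -0.68, and POLR1D and GTF3A are 185 kb apart on chromosome 13 and changed by -0.07 and 0.92. The part of the neighbourhood in each gene's change was not tested.

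**Figure D5:**
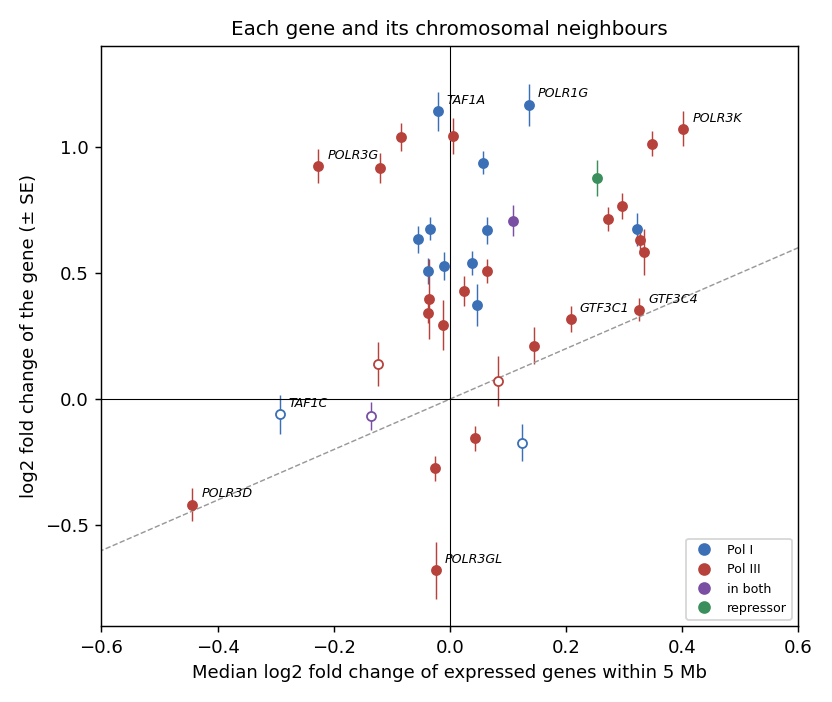
Log2 fold change of 40 of the 41 genes (vertical axis, ± SE) against the median log2 fold change of the expressed genes within 5 Mb (horizontal axis), filled where the gene passed the test, with a dashed line of equal change. POLR3D and GTF3C4 lie on the line, while POLR3G and TAF1A lie far above it and POLR3GL below it.

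The letters in the promoter windows were counted for the 34 of 41 genes with a RefSeq window, from 250 bases before to 50 bases after the start, on both strands. The patterns were the E-box letters CACGTG, the ETS letters CCGGAAG, the CCAAT box and the NRF1-type letters GCATGCG, and none of them contains another. CCGGAAG was found in 17 windows (50%), compared with 17.7% of the 11599 windows of tested protein-coding genes and 10.7% of all 27305 windows. It stood in 13 of 26 windows of genes that rose, 1 of 3 that fell and 3 of 5 that did not pass the test. CACGTG was found in 7 windows (20.6%), compared with 9.66% of tested protein-coding genes and 7.43% of all windows. The 7 genes were POLR1G, POLR3A, POLR3C, POLR3E, GTF3C2, GTF3C4 and GTF3C6. CACGTG thus stood in 7 of 26 windows of genes that rose, 0 of 3 that fell and 0 of 5 that did not pass the test. As 26 of the 34 windows belong to genes that rose, most holders of any pattern would be such genes. A link between letters and direction was not tested. CCAAT stood in 12 windows (35.3%, against 36.6% and 35.7%) and GCATGCG in 3 (8.82%, against 5.98% and 4.13%). These matches describe the windows and are not measured binding sites.

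Other genes tied to these enzymes, in lists chosen with earlier results of these data known, gave a background. Among all protein-coding genes tested, 37.9% rose and 31.8% fell, and 6.26% rose by 2-fold or more. Of the 6 genes shared by Pol I, Pol II and Pol III, 4 rose and 1 fell (median 0.31). POLR2L, a small core subunit, rose by 1.02 ± 0.11 (adjusted p = 2.041e-07). TBP, the TATA-binding protein used by SL1, TFIIIB and SNAPc, fell by 0.51 ± 0.09 (adjusted p = 2.644e-05), from 22.5, 24.5 and 24.6 CPM to 16.7, 18.4 and 15.1 CPM, where its 21 neighbours had a median of -0.59. The part of the neighbours in that fall was not tested. CRCP, a further Pol III subunit, rose by 0.41. Of the 7 subunits particular to Pol II, 5 rose and 1 fell (median 0.44), with POLR2A, the largest, at 0.88 ± 0.04 and POLR2B, the second-largest, at -0.16 ± 0.04. Subunits of all 3 enzymes were thus mostly higher. Of 9 nucleolar partners of Pol I, 8 rose, 5 of them by 2-fold or more (median 1.06). DDX21, a nucleolar helicase, had the smallest p, with 460, 472 and 491 CPM in WT and 1154, 1219 and 1180 CPM in those labelled ΔTUT4/7. Of 3 partners of Pol III, SSB, the La protein that binds new Pol III transcripts, rose by 0.76 ± 0.07 (adjusted p = 7.68e-07), and ZNF143 (0.06) and POU2F1 (-0.10) did not pass the test.

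Of 6 tested products of Pol III, RN7SK passed the test, and it was lower. This RNA, which holds the elongation factor P-TEFb inactive, was at 4704, 4359 and 5915 CPM in WT and lower at 3436, 3923 and 3153 CPM in those labelled ΔTUT4/7, and its log2 fold change was -0.51 ± 0.16 (adjusted p = 0.0472). The other 5 did not pass: RN7SL1 (-0.41), RN7SL2 (-0.72), RMRP (0.22), RPPH1 (-0.32) and RNY1 (-0.83, under 1 CPM). The groups of RN7SL2 did not overlap, with 3780, 3281 and 5346 CPM in WT and 2171, 2853 and 2496 CPM in ΔTUT4/7. In each of the 6 RNAs, WT replicate 3 was the highest WT library. Approximate unadjusted 95% intervals, from the SE and a normal distribution, were wide. They ran from -0.96 to 0.15 for RN7SL1, from -1.19 to -0.26 for RN7SL2, from -0.38 to 0.81 for RMRP and from -0.78 to 0.13 for RPPH1. For these variable RNAs such intervals are too narrow, as RN7SL2 had an unadjusted p of 0.0355 in edgeR's quasi-likelihood test. A rise of the size seen in the machinery lay within the interval of RMRP, and for the others these intervals cannot settle it. Some of these RNAs have near-identical copies in the genome among which reads can be divided. Ribosomal RNA, the product of Pol I, had been removed before sequencing, and transfer RNAs were not analysed here.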

How the data were processed

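RNA-seq libraries came from 3 WT and 3 ΔTUT4/7 HEK 293T samples (paired-end, rRNA-depleted total RNA). Per the labels and the study's methods, the authors aligned reads to hg38 with STAR 2.7.3a and deposited estimated counts per Ensembl gene from the expectation-maximisation model of Partek Flow 10.0.22. Between 45.2% and 50% of a library's values were not whole (tolerance 1e-09). Whether counting used the read strand is not given in the sources used here. A deposited table of the authors' own comparison, with p-values, FDR, ratio, fold change and group means, was not used, and 0 columns of unlisted samples were present.

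Counts were rounded and genes with a largest count above 12, as in the study, were tested (23952 of 30270 genes, the rest holding 0.0962% of counts) with edgeR 4.0.16 (TMM, glmQLFit, glmQLFTest, group as the only term) under R 4.3.3, p-values adjusted after Benjamini and Hochberg over every gene tested, and calls at an adjusted p under 0.05. The biological coefficient of variation was 6.44%. No pair of libraries agreed within sampling noise (chi-square per degree of freedom 2.43 to 10.2 within groups). Levels per kb used the canonical transcript of GENCODE on hg38. On simulated data with 22966 genes, 200 genes were changed, equally up and down. There 95% of genes changed by a log2 of 1 and 67% of those changed by 0.5 were recovered, and 0.119% of unchanged genes were called. In the real data 57.7% of tested genes were called, so these rates do not carry over to it.

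The genes and lists were chosen with earlier results of these data known. Values by library were given, in each role group, for the gene with the smallest p and that with the largest mean CPM, for POLR1C, POLR1D, POLR3G, POLR3GL, BRF1, BRF2, MAF1 and the targets TUT4 and TUT7, and from other lists for the smallest p in each direction. POLR1G, POLR3D, the counterpart pairs and the printed promoters were added after their values were seen. Alternatives were other scalings (RLE, upper quartile, library size alone), DESeq2 1.42.0, limma 3.58.1 (voom, and log2(CPM + 1)), other count filters, a GC and length offset, a block for the replicate number, the omission of 1 library at a time and the subtraction of neighbouring genes. Of the 41 genes, 1 entered the counts and medians but is not reported here by itself.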

Additional observations from a re-analysis of the deposited data

How the results depend on the processing

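The 41 genes gave 28 to 32 rises over 16 other fits, and 31 of the 36 calls were kept in every one. The call was lost in some fits for BRF1, BRF2, SNAPC2, SNAPC3 and 1 further gene, while TAF1B and POLR1D were called lower in 7 and 4 fits. The Pol I and Pol III medians came to 0.52 and 0.28 with library size alone, 0.53 and 0.30 with upper-quartile scaling, 0.52 and 0.24 with limma on log2(CPM + 1), and 0.57 and 0.33 with a mean count of 50 or more. In each of these 4 fits, and with the replicate block, 1 Pol I gene (TAF1B) was called lower instead of 0. With the GC and length offset the Pol III median was 0.50 and the difference between the enzymes 0.12. With the neighbours subtracted the Pol I median was 0.55, the difference 0.16 and POLR3D at 0.025 instead of -0.42. SNAPC1 changed sign with library size alone (-0.042), limma (-0.038) and upper-quartile scaling (-0.028). With 1 library left out at a time, the Pol I median ran from 0.57 to 0.66, the Pol III median from 0.36 to 0.46, their difference from 0.17 (without WT replicate 1) to 0.31 (without ΔTUT4/7 replicate 3), the Pol I genes called lower from 0 to 1, TAF1C from -0.12 to 0.016 (without WT replicate 1) and the log2 ratio of BRF2 to BRF1 from -0.022 (without WT replicate 3) to 0.16. The cause of these shifts was not tested.

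Same-numbered libraries of both groups did not deviate together (r across genes of 0.052, -0.011 and -0.022, and from -0.09 to 0.095 between other numbers). This gave no sign that the numbers pair the samples, but it cannot show how the libraries were prepared. The block left 32 genes higher and made 5 lower in place of 4, and changed no other call. Without RRN3, GTF3C6 and BDP1, whose pseudogene copies had a mean count of 20 or more, 29 genes rose and 4 fell, an alternative added after the data were seen. Of the 41 genes, 18 overlap a gene with a mean count of 50 or more on the opposite strand, and SNAPC2 (from 81 counts) limits precision most.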
